A study of Mus musculus with 12 samples.

Results

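The genes described here are 8 genes of arginine, nitric oxide and itaconate metabolism, followed across microglia sorted from mouse spinal cord. They were chosen by symbol, with earlier results of these data known, and matched to Ensembl gene IDs through GENCODE M21. The 8 are Slc7a1, Slc7a2, Nos2, Ass1, Arg1, Arg2, Odc1 and Acod1. All 8 were found among the 48526 gene IDs of the count files, each held counts, and each passed the filter on low counts that left 12545 genes for testing. Of the 8, Nos2, Arg1, Slc7a2, Ass1 and Acod1 did not pass that filter in the control and remission libraries alone, nor Nos2 and Ass1 in the control and chronic libraries alone, so they entered the test through the libraries in which they were high.

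Arginine enters myeloid cells through cationic amino acid transporters and is then contested by competing enzymes. Inducible nitric oxide synthase turns it into nitric oxide and citrulline, and citrulline is recycled to arginine by argininosuccinate synthase and lyase. Arginases split it into urea and ornithine, from which ornithine decarboxylase starts polyamine synthesis. Aconitate decarboxylase draws cis-aconitate out of the citric acid cycle to make itaconate, a metabolite of activated macrophages that inhibits succinate dehydrogenase. In experimental autoimmune encephalomyelitis (EAE), a model of multiple sclerosis in which autoimmune inflammation damages myelin, nitric oxide synthase and arginase are widely used to tell states of myeloid cells apart.

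RNA was sequenced from 3 control Biozzi ABH mice, a strain prone to relapses, and from Biozzi ABH mice with chronic-relapsing EAE, 3 in the acute phase, 3 in remission and 3 in the chronic phase. The cells were taken by flow cytometry as CD11b-positive, with intermediate CD45 and without Ly-6C, so the gate was set to leave out Ly-6C-positive monocytes. The labels give no age, no day of disease and no treatment of the controls. The replicate number of a library is its order in the records and pairs no mice.

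Libraries held 3992885 to 5712376 counts, of which 1266782 to 2496096 lay outside the 6 largest features and the mitochondrial genes. Markers of the labelled cell type were present in every library, with counts of 9 or 10 of 10 resident microglia genes (P2ry12, Tmem119 and others). Their summed level was 1056 to 1839 CPM (read counts scaled to a common library size) in acute libraries, against 6659 to 7626 in control libraries. Markers of monocytes and recruited macrophages ran the other way. Their 12 genes summed to 2002 to 2864 CPM in acute libraries, against 31.5 to 83.1 in control libraries, and 10 neutrophil genes summed to 110 to 366 CPM in acute libraries, against at most 0.647 in control libraries. Remission replicate 1 stood apart from the other remission libraries, with 662 CPM of 6 oligodendrocyte genes (56.8 and 111 in the others) and 39.1 CPM of neutrophil genes (2.10 and 1.06 in the others), so remission values that rest on it are also given without it. In these bulk libraries fewer cells of a type and less RNA per cell cannot be told apart.

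RefSeq promoter entries on GRCm38.p6 were found for 4 of the 8 genes, and short windows upstream of their RefSeq starts are shown. They set the promoter letters of Acod1 and Ass1, absent from control libraries, beside those of Slc7a1 and Odc1, present in all. The 250 bases before each RefSeq start were searched on both strands for 5 motifs, none of which overlapped another there. The GENCODE M21 spans given below for Acod1, Ass1 and Odc1 begin within these 250 bases, upstream of the RefSeq start used here. The TATA box, where the basal machinery can dock, was searched as TATAAA. The E-box, bound by helix-loop-helix factors, was searched as CACGTG, and the GC box, bound by Sp factors, was searched as GGGCGG. The gamma-activated sequence of interferon-responsive genes was searched as TTCNNNGAA, and the AP-1 site of Fos and Jun as TGANTCA. Each line gives 30 bases in the direction of the gene, and capitals mark the match closest to the start, a GC box being read there on the opposite strand. The letters shown for Ass1, Odc1 and the downstream start of Slc7a1 lie inside the GENCODE spans, as does the match of Acod1.
Acod1, chr14:103046972-103047001, plus strand: ggagtgactgtgTATAAAggcacacgtcca
Slc7a1, downstream start, chr5:148392826-148392855, minus strand: gggagtggggctTATAAAggtagattcaca
Slc7a1, upstream start, chr5:148399923-148399952, minus strand: tctcgggtgtccCCGCCCacaggggcgcgg
Ass1, chr2:31470222-31470251, plus strand: cgcgcccgtcccCACGTGtcccaggttcct
Odc1, chr12:17544843-17544872, plus strand: gccgccacggagtccCCGCCCctcccccgc

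The TATA box of Acod1 began 28 bases before its RefSeq start, as did that of the downstream start of Slc7a1, and 12.4% of the 32851 promoter windows held one. The GC share of these 250 bases was 44.4% in Acod1 against a median of 52.4% over all windows, and the downstream start of Slc7a1 was also under that median. It was 62.4% at the upstream start of Slc7a1, 75.6% in Ass1 and 80.0% in Odc1. An E-box lay in the Ass1 window and in 6.02% of all windows. GC boxes, present in 32.7% of windows, numbered 4 in Odc1 and 1 in Ass1 and at the upstream start of Slc7a1. That upstream start also held an AP-1 site (6.75% of windows), and the downstream start a gamma-activated sequence (7.02%).

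In the acute phase all 8 genes were higher than in control microglia, by at least 219-fold in Slc7a2, Ass1 and Acod1, of which control libraries held no read, and no gene had acute and control values that overlapped. Of all genes tested, 30% had every acute library above every control library. The share was 14.4% for remission libraries and 16.5% for chronic libraries. Called genes are those with an adjusted p under 0.05 from edgeR's quasi-likelihood test, adjusted by Benjamini-Hochberg across 12545 genes. That fit is the source of every adjusted p below, except those given for an alternative or as a range over alternatives. Each alternative was adjusted over the genes it tested, and DESeq2 and limma-voom used their own tests. At an adjusted p under 0.05, 23.7% of genes tested were higher and 20.0% lower in acute than in control libraries. The median log2 fold change of the 8 genes was 7.16, with the genes that controls lacked set at their lower bound, against 0.02 over all genes tested. Because the 8 were chosen with earlier results of these data known, their counts and medians are descriptions and not tests. Each of the 8 was higher in acute than in control libraries under every alternative run, including scaling by library totals, and the call of Slc7a1 ended there. In remission 2 of the 8, Slc7a2 and Acod1, were called higher than in control, against a background of 6.06% higher and 3.25% lower. Neither passed the filter in the control and remission libraries alone, a fit that called 0 of the 8. In the chronic phase Slc7a2, Acod1 and Ass1 were called higher than in control, 3 of 8, against 9.57% higher and 5.17% lower. Of these, Ass1 did not pass the filter in the control and chronic libraries alone. The median log2 fold change of the 8 was 1.34 in remission and 1.79 in the chronic phase, against 0.01 and -0.01 over all genes tested. The comparisons of acute, remission and chronic libraries with control share the same 3 control libraries.

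Compared with the acute phase, all 8 genes were called lower in remission, where 19.4% of genes tested were lower, and 6 of 8 in the chronic phase, where 15.5% were lower. The 2 exceptions were Slc7a1 and Odc1. Between the chronic phase and remission, where 1.2% of genes were called in either direction, edgeR's test called 0 of the 8. At an unadjusted p under 0.05 there were 3, namely Slc7a2, Acod1 and Slc7a1, and DESeq2 called 1, Acod1.

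**Figure D1:**
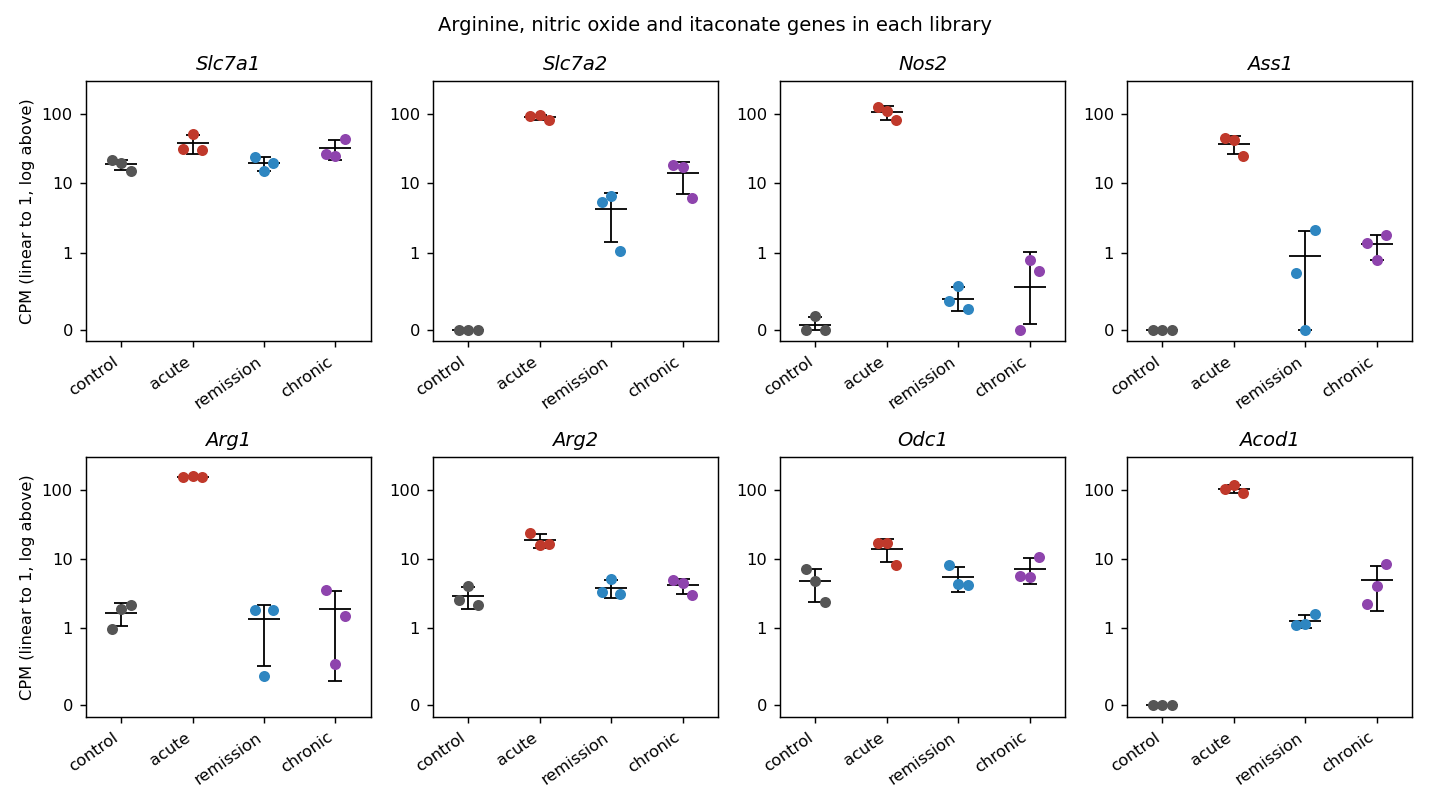
Levels of the 8 genes in each library, in CPM on an axis that is linear to 1 and logarithmic above, for the control, acute, remission and chronic groups (points, 3 mice each; the bar is the mean ± SD, cut at 0). All acute points lie above all control points, and only Slc7a2 and Acod1 have every remission and every chronic library above every control library by at least 4 counts. Over all genes tested, without a bound on counts, 14.4% had every remission library and 16.5% every chronic library above every control library.

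The first step of the pathway is uptake. Slc7a2 (chromosome 8, 40862396 to 40922308), the cationic amino acid transporter that macrophages switch on with activation, had 93.9, 95.6 and 81.2 CPM in acute libraries, against 0 counts in each control library. It had 5.35, 6.50 and 1.06 CPM in remission libraries and 18.2, 17.5 and 6.12 CPM in chronic libraries. All 9 disease libraries thus held Slc7a2 and no control library did, and the chronic and remission ranges overlapped through chronic replicate 3. Set against a floor of 3 counts over the control group, Slc7a2 was at least 525-fold higher in acute (adjusted p = 1.93e-05), at least 83.9-fold higher in chronic (adjusted p = 0.00153) and at least 26.9-fold higher in remission libraries (adjusted p = 0.0202).

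The acute and chronic calls of Slc7a2 held under every alternative run. Its remission call ended without control replicate 1, control replicate 2, remission replicate 1 or remission replicate 2, with an adjusted p of 0.0641, 0.053, 0.0862 and 0.0516, in a range of 5.71e-06 to 0.0862 over 19 alternatives. Relative to the acute phase the log2 fold change of Slc7a2 was -4.31 ± 0.49 in remission (SE, adjusted p = 0.000202) and -2.67 ± 0.42 in the chronic phase (adjusted p = 0.00201). Its chronic mean was 15.4% of its acute mean and its remission mean 4.77%. The chronic mean was 3.11 times the remission level in pooled counts, with an adjusted p of 0.189, which passed the threshold only with no filter on low counts (0.0128; range over 20 alternatives 0.0128 to 0.347).

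The reads did not keep their strand, and the exons of Slc7a2 overlap those of Gm26584, a long noncoding RNA on the opposite strand. Gm26584 had 91 counts over the 12 libraries, against 1263 for Slc7a2, and reads of the pair cannot be told apart. Gm26584 stood at 5.71, 9.86 and 2.07 CPM in acute libraries, and no control library held a count of it.

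Slc7a1 (chromosome 5, 148327410 to 148399904), the transporter that most cells use to import arginine constantly, had 31.9, 51.2 and 30.8 CPM in acute libraries, against 21.5, 19.6 and 15.3 CPM in control libraries. It had 24.2, 14.9 and 19.9 CPM in remission and 27.0, 25.2 and 44.1 CPM in chronic libraries. Unlike Slc7a2 it was present in every library, and its acute libraries stood above the control and remission libraries without overlap. The log2 fold change was 1.0 ± 0.25 in acute over control (adjusted p = 0.00359) and -0.95 ± 0.25 in remission over acute (adjusted p = 0.00713). With library totals alone the acute rise of Slc7a1 was 0.44 with an adjusted p of 0.128, and over all 20 alternatives the p ranged from 2.47e-06 to 0.128. The fall in remission had an adjusted p of 0.0503 without acute replicate 2 (range 1.21e-05 to 0.0503).

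Every chronic library lay above every control library in Slc7a1, at a log2 fold change of 0.75 ± 0.25 and an adjusted p of 0.0529. Of 20 alternatives 10 put this comparison past the threshold (range 0.00131 to 0.278), among them the title number as covariate (log2 fold change 0.90, 0.0141), DESeq2 at 0.0343 and the fits without acute replicate 2 (0.0298), remission replicate 1 (0.0351), remission replicate 2 (0.0358) or chronic replicate 2 (0.0326). Slc7a1 kept 84.6% of its acute mean in the chronic phase, the highest share of the 8 genes, and 51.8% in remission. Control libraries stood at 49.5% of it. The 6 astrocyte genes summed to 111 to 202 CPM in chronic libraries, against 58.2 to 74.3 CPM in control libraries. Chronic replicate 3, with the highest Slc7a1, was the lowest of the chronic libraries in that sum, and the part of these cells was not tested. Endothelial and pericyte genes gave 1 higher, Flt1, and 1 lower, Pecam1, of 3 tested.

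Nos2 (chromosome 11, 78920787 to 78960254), which encodes inducible nitric oxide synthase, had 129, 109.8 and 82.1 CPM in acute libraries, against 0, 0.175 and 0 CPM in control libraries. In counts these were 496, 412 and 277 reads against a single read in control replicate 2. The pooled ratio was 1874 with an exact 95% counting interval of 336 to 74097, and the log2 fold change was 10.31 ± 0.44 (adjusted p = 1.55e-12). It was 11.93 without control replicate 2, 9.73 without control replicate 1 and 9.70 with limma-voom. Such intervals and floors cover counting error only.

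Outside the acute phase Nos2 was near its detection limit. It had 2, 3 and 1 reads in remission (0.369, 0.574 and 0.266 CPM) and 0, 5 and 3 reads in chronic libraries (0, 0.900 and 0.765 CPM). Every remission library was above every control library, but neither phase passed the test against control, with an adjusted p of 0.221 in remission and 0.0842 in the chronic phase. Without chronic replicate 1, which had no Nos2 read, the chronic comparison had an adjusted p of 0.0184 (range over 19 alternatives 0.0184 to 0.324). Relative to acute, the log2 fold change of Nos2 was -7.92 ± 0.36 in remission (adjusted p = 1.12e-11) and -7.48 ± 0.35 in the chronic phase (adjusted p = 2.63e-11). The chronic value was -8.10 without chronic replicate 2. The remission and chronic means of Nos2 were 0.377% and 0.520% of its acute mean.

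Ass1 (chromosome 2, 31470207 to 31520672), argininosuccinate synthase, which returns citrulline to arginine, had 45.1, 42.1 and 24.6 CPM in acute libraries, against 0 counts in each control library. In remission it had 0.738, 0 and 2.13 CPM, and in chronic libraries 1.36, 0.900 and 1.79 CPM. The chronic libraries thus all held Ass1, with 5 to 7 reads each, while remission replicate 2 held none. Ass1 was at least 219-fold higher in acute (adjusted p = 3.68e-07) and at least 7.51-fold higher in chronic than in control libraries (adjusted p = 0.0187).

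The chronic call of Ass1 ended without control replicate 1 (adjusted p = 0.0622), control replicate 2 (0.0528), chronic replicate 1 (0.057) or chronic replicate 3 (0.0691), in a range of 3.22e-06 to 0.0691 over 19 alternatives. The remission comparison had an adjusted p of 0.0681 with a pooled fold of at least 4.82. It was called without remission replicate 2 (0.00447), with library totals alone (0.0352), with no filter (0.000592) and by DESeq2 (0.0105), the lowest and highest values being 0.000592 and 0.276. Relative to acute, the log2 fold change of Ass1 was -5.42 ± 0.53 in remission (adjusted p = 4.19e-06) and -4.81 ± 0.50 in the chronic phase (adjusted p = 1.01e-05). The remission value was -4.76 without remission replicate 2, -6.54 without remission replicate 3 and -6.20 with limma-voom.

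Arg1 (chromosome 10, 24915221 to 24927484), the cytosolic arginase, had 154, 159 and 152 CPM in acute libraries, against 0.996, 1.93 and 2.16 CPM in control libraries. The 3 acute mice were closer to each other in Arg1 than in any other of the 8 genes, at 155 ± 3.42 CPM (SD, n = 3), and the log2 fold change was 6.55 ± 0.35 (adjusted p = 1.6e-09). Remission libraries had 1.85, 0.383 and 1.86 CPM and chronic libraries 3.63, 0.540 and 1.53 CPM, both overlapping control. Against control the log2 fold change was -0.29 ± 0.59 in remission (adjusted p = 0.84) and 0.16 ± 0.55 in the chronic phase (adjusted p = 0.898). Relative to acute it was -6.84 ± 0.37 in remission (adjusted p = 5.72e-09) and -6.39 ± 0.35 in the chronic phase (adjusted p = 8.99e-09). The chronic value was -7.29 without chronic replicate 1 and -7.10 with limma-voom. The remission and chronic means were 0.879% and 1.23% of the acute mean, and the control mean was 1.09% of it.

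Arg2 (chromosome 12, 79130777 to 79156301), the mitochondrial arginase, had 23.6, 16.0 and 16.6 CPM in acute libraries, against 2.56, 4.03 and 2.16 CPM in control libraries. The groups did not overlap, at a log2 fold change of 2.67 ± 0.31 (adjusted p = 8.03e-07). Remission libraries had 3.32, 5.17 and 3.19 CPM and chronic libraries 4.99, 4.50 and 3.06 CPM, overlapping control and each other. The adjusted p against control was 0.539 in remission and 0.374 in the chronic phase. Relative to acute, its log2 fold change was -2.25 ± 0.31 in remission (adjusted p = 9.92e-06) and -2.15 ± 0.31 in the chronic phase (adjusted p = 2.43e-05). Its exons overlap those of Vti1b, a vesicle transport gene on the opposite strand, whose reads cannot be told apart from those of Arg2 at the shared bases. Vti1b ranged from 7.78 to 9.59 CPM in acute libraries, against 5.43 to 10.2 CPM in control libraries, ranges that overlapped.

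Odc1 (chromosome 12, 17544794 to 17551505), ornithine decarboxylase, the entry to polyamines, had 16.9, 17.3 and 8.30 CPM in acute libraries, against 7.11, 4.91 and 2.37 CPM in control libraries. Acute replicate 3 was close to control replicate 1, and the groups did not overlap. The log2 fold change was 1.52 ± 0.39 (adjusted p = 0.00402). Remission libraries had 8.12, 4.40 and 4.25 CPM and chronic libraries 5.68, 5.58 and 10.7 CPM, and both overlapped control, with an adjusted p of 0.846 and 0.442. Odc1 was lower in remission than in acute libraries, at a log2 fold change of -1.32 ± 0.39 (adjusted p = 0.0129), a call that ended without acute replicate 1 (0.0572), acute replicate 2 (0.0588), remission replicate 2 (0.0552) or remission replicate 3 (0.0536), in a range of 0.000281 to 0.0588. Its chronic difference from acute was -0.98 ± 0.39 (adjusted p = 0.0671). It passed in 7 of 20 alternatives (range 0.0156 to 0.681), among them the fits without control replicate 3 (0.0485), acute replicate 3 (0.0231), remission replicate 1 (0.0446) or chronic replicate 3 (0.0215). The log2 fold change ran from -1.33 to -0.26 over the alternatives, and from -1.33 to -0.80 with a library left out. All chronic libraries shared a title number that acute replicates 1 and 2 did not have.

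Acod1 (chromosome 14, 103046977 to 103056573), the enzyme that makes itaconate and, like Slc7a1, a gene with a TATA box shown above, had 104, 116 and 89.5 CPM in acute libraries, against 0 counts in each control library. It had 1.11, 1.15 and 1.59 CPM in remission, at 6 reads in each library, and 2.27, 4.14 and 8.42 CPM in chronic libraries, at 10, 23 and 33 reads. The groups formed 4 steps without overlap: control, remission, chronic, acute. Acod1 was at least 600.0-fold higher in acute (adjusted p = 2.54e-10), at least 27.5-fold higher in chronic (adjusted p = 3.32e-05) and at least 7.23-fold higher in remission than in control libraries (adjusted p = 0.00789). Each of these calls held in every alternative that could test it, remission included without remission replicate 1 (adjusted p = 0.0159, in a range of 7.37e-06 to 0.0334). Acod1 did not pass the filter in the control and remission libraries alone, so every fit behind its remission call also held acute libraries. Relative to acute, its log2 fold change was -6.33 ± 0.34 in remission (adjusted p = 3.89e-09) and -4.41 ± 0.28 in the chronic phase (adjusted p = 3.56e-08).

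The step from remission to the chronic phase was nearest to the threshold in Acod1. The log2 fold change was 1.92 ± 0.45 in chronic over remission, with an adjusted p of 0.0521. Of 20 alternatives 6 called it (range 6.65e-06 to 0.212): DESeq2 at 0.00251, no filter at 6.65e-06, library totals at 0.0236, DESeq2 size factors at 0.0479, the fit without the 6 largest features and mitochondrial genes at 0.0467, and the fit without chronic replicate 1 at 0.0027.

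Levels of different genes were compared per kilobase of exon. In acute libraries Arg1 stood highest at 69.6 ± 1.54 CPM per kb (SD, n = 3), ahead of Acod1 at 39.3 ± 5.08 and Nos2 at 24.2 ± 5.31. Ass1 at 15.4 ± 4.59, Arg2 at 13.1 ± 2.96 and Slc7a2 at 9.88 ± 0.862 followed, with Ass1 and Arg2 within their spread of each other. Odc1 at 4.16 ± 1.49 and Slc7a1 at 3.29 ± 0.992 were lowest and within their spread. In control libraries the order was another: Arg2 at 2.04 ± 0.690, Slc7a1 at 1.63 ± 0.274 and Odc1 at 1.41 ± 0.696 CPM per kb stood within their spread of each other, Arg1 had 0.760 ± 0.276, and the other genes held at most 1 read. In chronic libraries Arg2 had 2.93 ± 0.704, Slc7a1 2.79 ± 0.905, Odc1 2.15 ± 0.862, Acod1 1.88 ± 1.20 and Slc7a2 1.52 ± 0.740, ahead of Arg1 at 0.853 ± 0.709, Ass1 at 0.559 ± 0.183 and Nos2 at 0.126 ± 0.110, and neighbours down to Ass1 in that order did not differ beyond their spread. In remission the order was Arg2 at 2.73 ± 0.774, Slc7a1 at 1.71 ± 0.402 and Odc1 at 1.64 ± 0.644, then Arg1 at 0.612 ± 0.381, Acod1 at 0.489 ± 0.103, Slc7a2 at 0.471 ± 0.314 and Ass1 at 0.395 ± 0.447, these last 4 within their spread of each other, and Nos2 at 0.0913 ± 0.0356.

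Ratios within a library do not depend on library scaling. The per-kilobase level of Arg1 was 4.19, 6.37 and 5.87 times that of Arg2 in acute libraries, against 0.249, 0.307 and 0.641 times in control libraries. In remission the ratio was 0.356, 0.0475 and 0.374 and in chronic libraries 0.466, 0.0769 and 0.320, so Arg1 exceeded Arg2 in the acute libraries and in no other. Slc7a2 was 3.71, 2.36 and 3.33 times Slc7a1 in acute libraries, against no Slc7a2 read in control libraries. The ratio was 0.279, 0.550 and 0.0673 in remission and 0.849, 0.875 and 0.175 in chronic libraries, where 2 of 3 mice approached equal levels. Nos2 was 0.421, 0.349 and 0.273 times Arg1 in acute libraries, where both genes were high together. Elsewhere both were too low for a ratio with meaning, with at most 5 reads of Nos2 and 16 of Arg1.

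**Figure D2:**
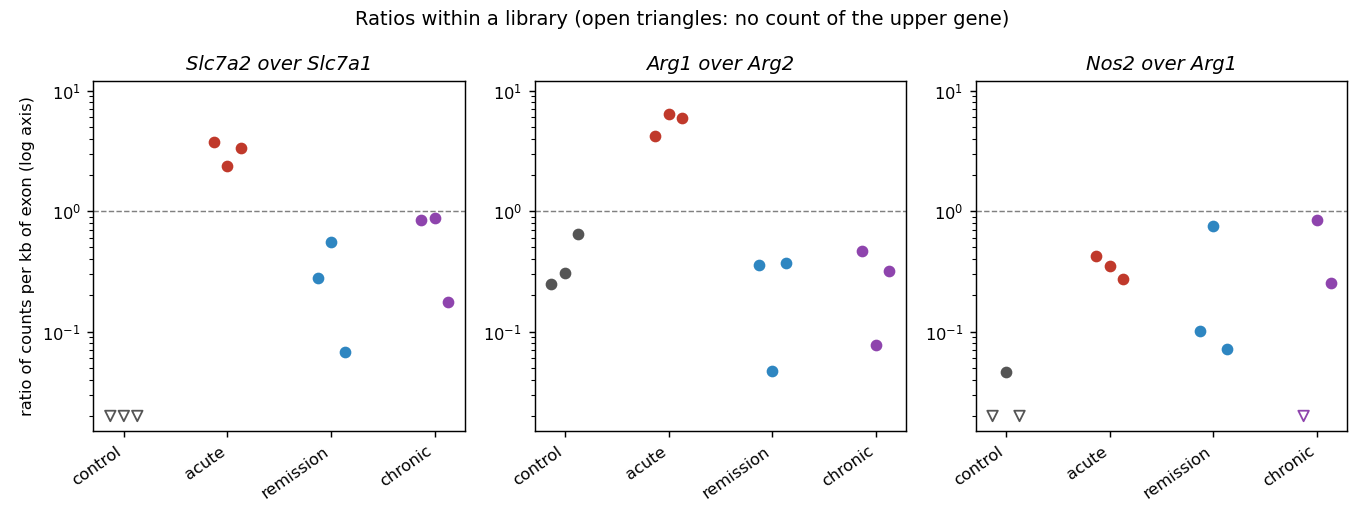
Ratio of counts per kilobase of exon within each library on a logarithmic axis, for Slc7a2 over Slc7a1, Arg1 over Arg2 and Nos2 over Arg1, in the control, acute, remission and chronic groups (1 point per mouse; open triangles mark libraries without a read of the upper gene; the dashed line is a ratio of 1). The acute points of the first 2 panels lie above 1, from 2.36 to 6.37, and the other filled points in them lie below 1.

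From control to the acute phase, markers of recruited cells rose, as did the 8 genes. Whether the 8 genes followed these markers from mouse to mouse within the acute phase was not tested. Without Lyz2, which resident cells can also make, the other 11 monocyte genes summed to 1439 to 2234 CPM in acute libraries, against 19.3 to 56.3 CPM in control libraries, and 11 of the 11 tested monocyte genes of the full list were called higher. Ly6c2, which encodes antigen the gate selected against, had 295, 280 and 144 reads in acute libraries, against 0 in each control library. T and NK cell genes summed to 49.2 to 81.2 CPM in acute libraries, against at most 0.701 in control libraries, and 6 astrocyte genes and 6 oligodendrocyte genes to 183 to 226 and 419 to 536 CPM, against 58.2 to 74.3 and 68.0 to 85.2 CPM in control libraries. Mitochondrial genes held 5.17% to 5.74% of counts in acute libraries, against 1.92% to 2.29% in control libraries, and the 6 largest features 62.4% to 64.1%, against 48.3% to 56.2%. The part of these cells and of these shares in the acute levels of the 8 genes was not tested.

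Remission and chronic libraries differed from acute ones in this respect. The 11 monocyte genes summed to 26.9, 17.2 and 22.8 CPM in remission and 32.0, 22 and 46.7 CPM in chronic libraries, against 22.9, 19.3 and 56.3 CPM in control libraries. Without control replicate 3 the control maximum was 22.9 CPM, and remission replicate 1 and chronic replicates 1 and 3 lay above it. Ly6c2 had 2, 0 and 3 reads in remission and 0, 2 and 1 reads in chronic libraries. Of the full list, Ccr2, a chemokine receptor of monocytes, was called lower in chronic than in control libraries (log2 fold change -1.63, adjusted p = 0.0291). Lyz2 was called higher than in control in both phases, at 108 to 126 CPM in remission and 83.4 to 146 CPM in chronic libraries, against 12.3 to 26.8 CPM in control libraries. Neutrophil genes summed to 39.1, 2.10 and 1.06 CPM in remission and 1.36, 0.180 and 9.95 CPM in chronic libraries, against 0.569, 0.350 and 0.647 CPM in control libraries, and mitochondrial genes held 2.51% to 3.81% of counts in remission and 3.02% to 4.36% in chronic libraries. The part of monocytes, neutrophils and these shares in the later levels of the 8 genes was not tested. Among chronic libraries replicate 3 had the highest sum of the 11 markers, 46.7 CPM, with the highest Acod1 and the lowest Slc7a2.

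**Figure D3:**
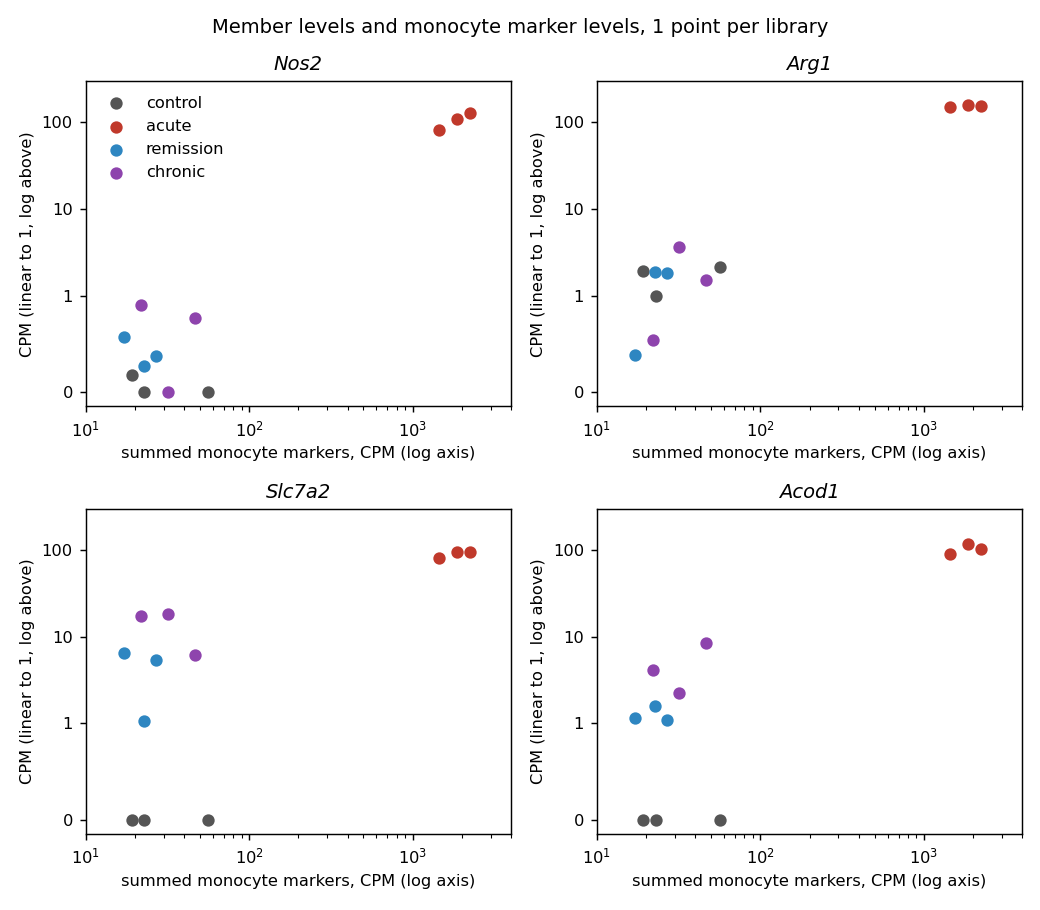
Level of Nos2, Arg1, Slc7a2 and Acod1 in CPM (linear to 1, logarithmic above) against the summed CPM of 11 monocyte marker genes, Lyz2 left out (logarithmic axis), 1 point per library, by group. Acute libraries sit apart at 1439 to 2234 CPM of markers; control libraries lie at 19.3, 22.9 and 56.3 CPM, remission libraries at 17.2 to 26.9 CPM and chronic libraries at 22 to 46.7 CPM.

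Genes with the most similar course were found by the root mean square difference of centred log2 CPM over the 12 libraries. This difference is not scaled to the size of a gene's change, so genes that change little tend to lie closer together by it. Nos2 was closest to Emb (0.43), Gpr141 (0.49) and F10 (0.53), which all had 0 counts in control libraries and at most 0.145 CPM on average in remission and chronic libraries. Arg1 was closest to Clec12a (0.56), Hp (0.59) and Atp8b4 (0.61). Acod1 and Ass1 shared Anpep among their nearest genes (0.50 and 0.55). Anpep averaged 88.2 CPM in the acute phase, 2.37 in remission and 4.28 in the chronic phase, the same order of phases as Acod1. The others nearest to Acod1 were Cd38 (0.59) and Ifi47 (0.64), and those nearest to Ass1 were Mcemp1 (0.52) and Gpr132 (0.60).

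Slc7a2 had no close neighbour, the nearest being Lgals3 (0.81), Sash1 (0.90) and Ehd1 (0.92). These 3 genes also kept more of their acute level in the chronic phase than in remission, with Lgals3 at a mean of 128 CPM in the acute phase, 6.52 CPM in remission and 10.8 CPM in the chronic phase. Slc7a1 ran closest to Psmb6 (0.20), Oaz1 (0.21) and Nup210 (0.21), Arg2 to Cry1 (0.31), Ninj1 (0.34) and Jak2 (0.35), and Odc1 to Pcgf5 (0.28), Esd (0.29) and Mybl2 (0.35). Among the 8 genes themselves the closest pair was Slc7a1 with Odc1 (0.40).

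The rest of the arginine supply and urea cycle moved little by comparison. Of 13 listed genes 8 were tested, and 4 were called higher and 0 lower in acute than in control libraries. For this and the lists that follow, the shares of all genes are 23.7% higher and 20.0% lower in acute, 6.06% and 3.25% in remission and 9.57% and 5.17% in chronic over control. Asl, argininosuccinate lyase, the partner of Ass1 in making arginine, averaged 18.5 ± 1.40 CPM in acute and 8.70 ± 2.27 in control libraries (log2 fold change 1.11 ± 0.23, adjusted p = 0.000475). Slc3a2, the heavy chain shared by several amino acid transporters, averaged 95.3 ± 4.41 CPM in acute and 59.8 ± 11 in control libraries (adjusted p = 0.00055), and Oat, ornithine aminotransferase, 24.1 ± 2.86 and 14.0 ± 3.23 CPM (adjusted p = 0.00256). With library totals alone 0 of the list were higher and 3 lower, and the calls of Asl, Slc3a2 and Oat ended.

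In the chronic phase 3 of the supply genes were higher and 0 lower, and in remission 1 was higher and 0 lower. Slc3a2 was called in both, at 97.3 ± 8.4 CPM in chronic libraries (adjusted p = 0.00126) and 81.6 ± 8.08 CPM in remission (adjusted p = 0.0446). Slc7a7, which exports cationic amino acids, averaged 54.9 ± 4.60 CPM in chronic and 36.9 ± 4.09 in control libraries (adjusted p = 0.0377). The chronic count was 1 without any of the 3 control or 3 chronic libraries, and the remission count was 0 without control replicate 1 or 2, acute replicate 2 or 3 or remission replicate 1 or 2 and 2 without acute replicate 1. Otc, which runs the hepatic urea cycle, had 0 counts in all 12 libraries, and Cps1 had 3 reads in all.

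Around nitric oxide, 7 of 14 listed genes were tested, with 1 higher and 1 lower in acute than in control libraries. Gch1, whose product begins the synthesis of the cofactor tetrahydrobiopterin, had 8.56, 10.9 and 5.04 CPM in acute libraries, against 3.13, 2.98 and 3.24 CPM in control libraries. Its log2 fold change was 1.39 ± 0.39 (adjusted p = 0.00678), and the call ended without acute replicate 2 and with library totals alone, at an adjusted p between 0.0555 and 0.0761. Ddah2, of the dimethylarginine dimethylaminohydrolase family, averaged 2.35 ± 0.918 CPM in acute and 8.70 ± 0.816 in control libraries (log2 fold change -1.87 ± 0.35, adjusted p = 0.000198). It was also lower in the chronic phase (-1.60 ± 0.33, adjusted p = 0.00182) and in remission (-1.14 ± 0.32, adjusted p = 0.0258), the only gene of the list called in either (0 higher, 1 lower in each), and the remission call ended without any 1 of the control or remission libraries. The other synthases were barely counted, Nos1 at no more than 3 reads and Nos3 at no more than 2 reads in a library.

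Downstream of Odc1, all 15 listed polyamine and proline genes were tested, and 5 were higher (33.3%, against 23.7% of all genes) and 1 lower in acute than in control libraries. Eif5a, the translation factor that carries a spermidine-derived residue, averaged 89.3 ± 7.50 CPM in acute and 34.2 ± 1.03 in control libraries (log2 fold change 1.39 ± 0.16, adjusted p = 5.17e-07). Oaz1, the antizyme that marks ornithine decarboxylase for breakdown, averaged 75.0 ± 11.1 and 37.5 ± 3.46 CPM (adjusted p = 4.52e-05), and Aldh18a1, which starts proline and ornithine synthesis from glutamate, 22.2 ± 6.74 and 6.51 ± 0.995 CPM (adjusted p = 0.000215). With library totals alone 3 were higher and 2 lower.

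Among these genes 4 were higher (26.7%, against 9.57% of all genes) and 1 lower in the chronic phase, and in remission 2 were higher (13.3%, against 6.06%) and 0 lower. The polyamine oxidase Paox averaged 39.3 ± 17.5 CPM in chronic (adjusted p = 0.00401) and 32.7 ± 12.4 CPM in remission (adjusted p = 0.0131), against 9.46 ± 2.03 in control libraries. Sat1, which acetylates spermidine and spermine for export, was called in remission at 142 ± 36.9 CPM, against 86.6 ± 11.8 in control libraries (adjusted p = 0.00528). The higher count in the chronic phase was 2 without control replicate 1 and 1 without chronic replicate 3, and the lower count was 0 without control replicate 1, control replicate 3 or chronic replicate 3. The remission count was 1 without control replicate 1, which ended the call of Paox, or without remission replicate 3, which ended that of Sat1.

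Around itaconate, 21 of 22 citric acid cycle genes were tested, with 10 higher and 1 lower in acute than in control libraries, a count that became 5 and 6 with library totals alone. The gene that fell was Idh2, mitochondrial isocitrate dehydrogenase, at 15.2 ± 0.725 CPM in acute and 37.3 ± 2.82 in control libraries (log2 fold change -1.29 ± 0.17, adjusted p = 2.4e-06). Sdhd, a subunit of succinate dehydrogenase, averaged 28.5 ± 1.82 and 9.94 ± 0.528 CPM (log2 fold change 1.52 ± 0.21, adjusted p = 5.82e-06) and Cs, citrate synthase, 60.3 ± 3.12 and 25.7 ± 5.35 CPM (adjusted p = 6.28e-05). In the chronic phase 4 were higher and 1 lower, Idh2 being lower at 21.8 ± 2.91 CPM (adjusted p = 0.00159) and the mitochondrial citrate carrier Slc25a1 higher at 13.9 ± 1.80 CPM in chronic and 7.26 ± 0.628 in control libraries (adjusted p = 0.00649). The higher count was 2 without control replicate 1. In remission 1 was higher and 1 lower, and the lower gene was again Idh2 (adjusted p = 0.0199). The higher count was 0 without any 1 control library or remission replicate 2 or 3, and the lower count 0 without control replicate 2 or 3 or remission replicate 1 or 2.

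The list of the NRF2 and ATF3 response to itaconate also holds Keap1, whose protein itaconate modifies, and Nfkbiz, whose protein itaconate is known to hold down in macrophages. Only RNA was measured here. Of its 10 genes 9 were tested, and 6 were higher and 0 lower in acute than in control libraries. Slc7a11, the cystine importer, had 101, 80.2 and 46.8 CPM in acute libraries, against 2.42, 1.40 and 0.647 CPM in control libraries (log2 fold change 5.56 ± 0.45, adjusted p = 3.33e-07). It had at most 1.53 CPM in a remission library and 1.36 CPM in a chronic library, and neither phase was called against control (adjusted p = 0.601 and 0.492). Txnrd1, thioredoxin reductase, averaged 46.5 ± 8.4 CPM in acute and 15.8 ± 1.56 in control libraries (adjusted p = 1.8e-06), and Hmox1, heme oxygenase, 27.2 ± 5.26 and 8.60 ± 1.02 CPM (adjusted p = 3.75e-06). Keap1, chosen after its values were seen, was among the 6 (log2 fold change 0.55, adjusted p = 0.00992), and Nfkbiz had a log2 fold change of -0.044 (adjusted p = 0.9). With library totals alone Keap1 was at -0.0087 (adjusted p = 0.975) and Nfkbiz at -0.60 (adjusted p = 0.0199), and with no filter Keap1 had an adjusted p of 0.0616, over ranges of 0.00332 to 0.975 for Keap1 and 0.0199 to 0.95 for Nfkbiz. In remission and in the chronic phase 2 were higher and 0 lower in each. Atf3, a stress transcription factor, was called in both at 22.3 ± 6.65 CPM in remission (adjusted p = 0.00017) and 16.0 ± 6.84 CPM in chronic libraries (adjusted p = 0.00128), against 5.22 ± 1.47 in control libraries, and Hmox1 in the chronic phase at 16.4 ± 2.46 CPM (adjusted p = 0.00584). The remission count was 1 without any 1 control library or remission replicate 3. With library totals alone the acute count was 4 higher and 2 lower.

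All 14 genes listed as inducers of these enzymes were tested, and 5 were higher (35.7%, against 23.7% of all genes) and 1 lower in acute than in control libraries, which became 5 and 7 with library totals alone and 2 lower without chronic replicate 1. Irf1, a transcription factor of the interferon gamma response, averaged 204 ± 12.5 CPM in acute and 29.2 ± 3.28 in control libraries (log2 fold change 2.80 ± 0.19, adjusted p = 2.04e-09). Hif1a, the hypoxia-inducible factor, averaged 189 ± 57.1 and 43.2 ± 2.07 CPM (log2 fold change 2.13 ± 0.20, adjusted p = 2.31e-07). In the chronic phase 5 were higher and 1 lower, with Irf1 at 94.8 ± 30.8 CPM (adjusted p = 5.02e-06). In remission 2 were higher and 1 lower. The lower count was 0 without any 1 control library in both phases, and also without chronic replicate 2 or 3 in the chronic phase and remission replicate 1 or 2 in remission.

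**Figure D4:**
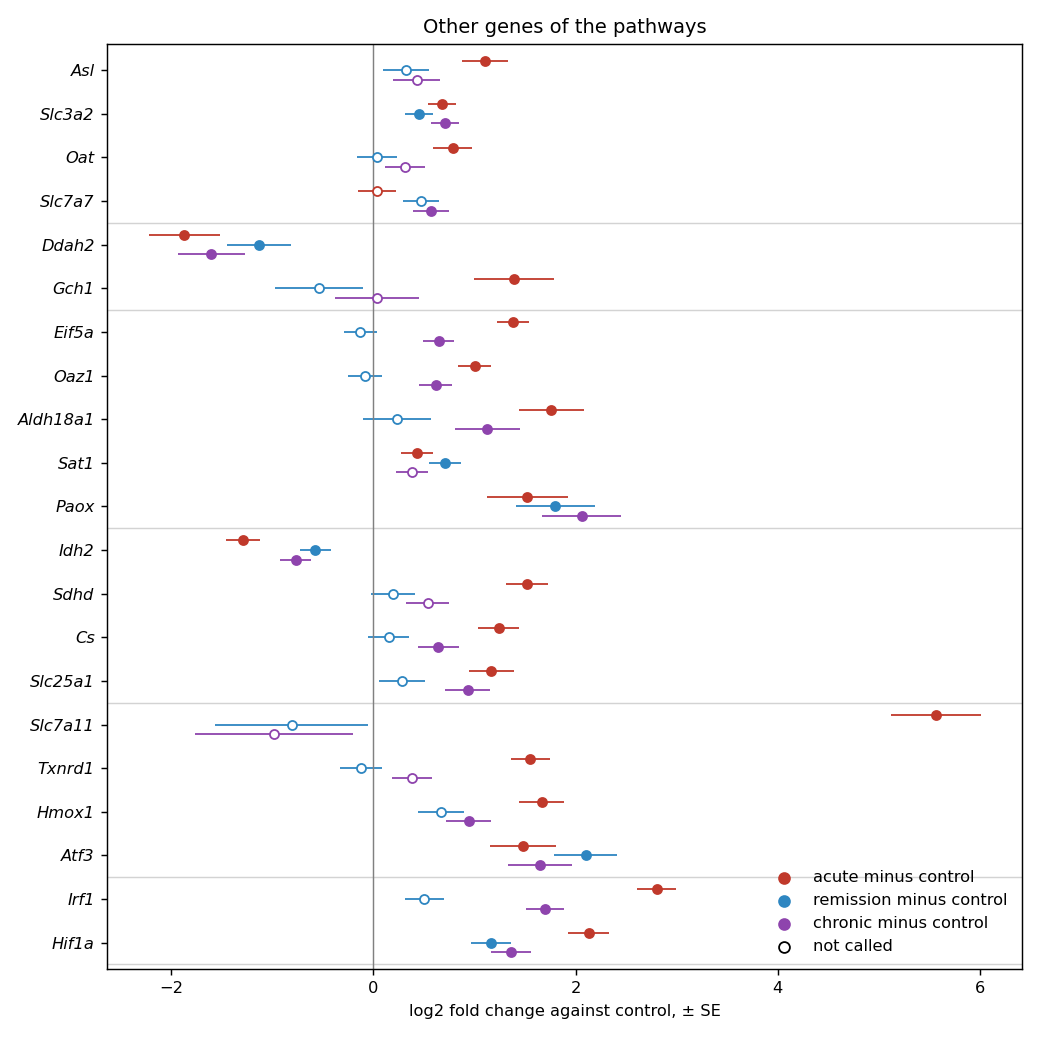
Log2 fold change against control with its SE for genes of the pathway lists, in acute, remission and chronic libraries (3 mice each, filled where called and open where not); grey lines part the lists of supply, nitric oxide, polyamine and proline, citric acid cycle, itaconate response and inducers. Slc7a11 at 5.56 stands apart in the acute phase and lies below 0 in remission and the chronic phase.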

How the data were processed

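HISAT2, GRCm38, SAMtools 1.3.1, Picard 2.6.4 and HTSeq 0.6.1 are named, per the submitters' processing notes; HTSeq settings and annotation release are not given in the sources used here. The values the authors deposited are whole-number counts of reads per gene, and 12 of 12 single files equalled the table of the series. The library kit, per the labels' protocols, does not keep strand. GENCODE M21 named 48144 IDs, and the 382 others held 0.0208% of counts. The 6 largest features held 48.3 to 64.1% of a library.

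Counts were analysed in R 4.3.3 with edgeR 4.0.16 (filterByExpr, TMM factors, robust quasi-likelihood test, 1 model of 4 groups, Benjamini-Hochberg over 12545 genes). CPM are after TMM scaling. Log2 fold changes stand with an SE worked back from the test, as the absolute log2 fold change over the square root of the quasi-likelihood F statistic. For a group without counts a floor of 3 counts over the group was used (0.173 CPM in control), and counting intervals are exact at 95%. The fit was tested on simulated counts in which genes with counts in control libraries changed by known folds. That test changed no gene with few or no control counts, such as Nos2, Slc7a2, Ass1 or Acod1. p-values set group differences against a spread between mice, 3 a group, that was estimated over the 4 groups and moderated across genes. Alternatives were DESeq2 size factors, library totals, leaving out the 6 largest features and mitochondrial genes, no filter, DESeq2 1.42.0, limma-voom (limma 3.58.1), the title number as covariate, the 2 groups alone, and each library left out. List counts under them were added after seeing the data. The title number is the digit that ends a library's title, and the labels do not give its meaning. It was 2 in acute replicates 1 and 2, control replicate 1 and remission replicate 1. It was 1 in the other libraries, every chronic library included.

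The 8 genes and the lists were chosen with earlier results of these data known. Named were all 8, up to 3 genes per list with the smallest p among those called in acute minus control, up to 2 among those called later, and the 3 nearest genes per gene, predicted, Rik, mitochondrial genes and pseudogenes left out. A gene that this rule names is counted in its list and is not reported here. Genes Gm26584, Vti1b, Otc, Cps1, Nos1, Nos3, Ly6c2, Lyz2, Ccr2, Flt1, Cldn5, Cdh5, Pecam1, Keap1 and Nfkbiz fall outside this rule and were named after their values were seen. Promoter letters come from RefSeq (GRCm38.p6).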

Additional observations from a re-analysis of the deposited data

How the results depend on the processing

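Of 950 values of the 8 genes under the alternatives, 883 kept direction and side of the threshold, and 23 changed sign, none of them called in the main analysis; the causes were not tested. Scaling by library totals shifted the median over all genes by -0.56 in acute, -0.25 in remission and -0.36 in chronic over control, by 0.31 in remission and 0.19 in chronic over acute, and by -0.11 in chronic over remission. Called genes that were higher then made up 22.8% in place of 54.3% in acute over control, 32.6% for 65.1% in remission over control, 21.7% for 64.9% in chronic over control, 71.2% for 47.6% in remission over acute, 64.4% for 46.3% in chronic over acute and 61.4% for 78.1% in chronic over remission. Totals turned Slc7a1 to -0.21 and Odc1 to -0.076 in remission over control, Arg1 to -0.19 in chronic over control and Arg2 to -0.015 in chronic over remission. In the lists, totals gave 0 supply genes higher in the chronic phase (3 before), 1 polyamine or proline gene (4), 0 cycle genes (4) and 1 itaconate-response gene (2), with 6 inducers lower (1). Limma-voom turned Arg1 to -0.52 in chronic over control and -0.023 in chronic over remission, and the title covariate turned Slc7a1 to 0.029 in chronic over acute.

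Leaving out 1 library at a time, log2 fold changes ran from -0.13 to 0.23 for Slc7a1, -0.18 to 0.61 for Odc1 and -0.66 to 0.19 for Arg1 in remission over control, from -0.75 to 0.68 for Arg1 in chronic over control and from -0.54 to 0.025 for Slc7a1 in chronic over acute. In chronic over remission they ran from -0.026 to 0.37 for Arg2, -0.45 to 0.98 for Arg1, -0.028 to 1.73 for Ass1, -0.19 to 0.98 for Nos2 and -0.0083 to 0.72 for Odc1.

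Of the 8 genes, 2 were called in remission over control, 0 with these groups alone, where 5 of the 8 did not pass the filter, and 1 to 2 with a library left out; it was 1 without control replicate 1, control replicate 2 or remission replicate 1. In chronic over remission the 0 called became 1 with DESeq2 size factors, 1 with library totals, 1 without the largest features, 3 with no filter and 1 with DESeq2, and 0 to 1 with a library left out. Over all genes, 1168 were called in remission over control (757 to 1312 with a library left out, 767 without control replicate 1 and 757 without control replicate 2). In chronic over control 1848 were called, 3241 with library totals (703 higher, 2538 lower) and 1216 to 1927 with a library left out, lowest without control replicate 2. In chronic over acute 3610 became 2402 with the title covariate (2588 to 3887 with a library left out). In chronic over remission 151 became 828 with no filter, 385 with DESeq2, 48 with limma-voom, 26 with these groups alone and 17 to 283 with a library left out.

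No paired analysis was possible because the replicate numbers follow the order of the records and pair no mice. Nos2, Ass1 and Acod1 held at most 33 reads a library outside the acute phase, so depth limits what can be said of them there.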

Other observations

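The chronic libraries divided on more than Slc7a2 and Acod1. Chronic replicate 3, with the highest Acod1 (8.42 CPM) and the lowest Slc7a2 (6.12 CPM), also had the highest Irf1, 123 CPM (62.0 and 99.2 in the others), Slc7a1, 44.1 CPM (27.0 and 25.2) and Odc1, 10.7 CPM (5.68 and 5.58). Chronic replicate 1, with the highest Slc7a2 (18.2 CPM) and the lowest Acod1 (2.27 CPM), had the highest Arg1 of all libraries outside the acute phase, 3.63 CPM. These genes were picked after their values were seen, and with 3 chronic mice no relation between them was tested.

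Among the marker genes, Flt1 encodes a receptor of vascular endothelial growth factors. It is named here because of its values, after they were seen, and stood at 15.3, 16.5 and 6.64 CPM in remission and 42.7, 54.4 and 18.9 CPM in chronic libraries, against 0.711, 0.876 and 1.29 CPM in control libraries, and its log2 fold change in chronic over control was called (adjusted p = 4.25e-06, edgeR's quasi-likelihood test). Replicate 3 of remission and replicate 3 of the chronic phase were the lowest of their groups in Flt1, as they were in Slc7a2. In acute libraries Flt1 had 9.08, 9.86 and 10.7 CPM, lower than in any chronic library, whereas Slc7a2 was higher in every acute than in any chronic library. Of the other endothelial markers, Cldn5 had 0 counts in all 12 libraries. Cdh5 had 0.681, 0.360 and 1.02 CPM in chronic libraries, against 0.853, 0.350 and 0.216 CPM in control libraries. Pecam1 was lower in chronic than in control libraries (log2 fold change -2.52, adjusted p = 0.00193; -3.14 without chronic replicate 2).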
